A study of Mus musculus with 18 samples.

Results

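Domains bound by Lamin B and domains marked by H3K9me2, both called from ChIP-seq of mouse embryonic stem cells (ESC), were compared with each other on chromosomes 1 to 19. All autosomal domains of both ESC lists entered, which gave 708 Lamin B domains and 2431 H3K9me2 domains. Together they made up 3139 of the 5624 domains in the 4 lists of the series, the other 2 lists being from wild-type cardiomyocytes derived from ESC and collected on day 10 of differentiation. Left out were 63 Lamin B and 249 H3K9me2 domains of ESC on X and Y.

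The ESC Lamin B list is named in the labels by 6 libraries: 2 from wild-type cells, 2 from CMV-creERT; Hdac3f/f cells without tamoxifen and 2 from the same line after Hdac3 was deleted with 4-hydroxytamoxifen, given at 1 µg/ml for 24 h. For H3K9me2, 4 libraries name the ESC list, 2 from wild-type cells and 2 from CMV-creERT; Hdac3f/f cells without tamoxifen. The way they were pooled was not given in the sources used here. Which genotypes each list represents is thus unknown, and it need not be the same for both antibodies. The wild-type cells grew without feeders in serum-free 2i medium, whereas the Hdac3f/f line was kept on a layer of mouse embryonic fibroblasts in serum. In that line a CMV promoter drives the tamoxifen-dependent Cre. Neither list holds a value per library, so spread between replicates and depth are unknown and no test of a difference was made. Domains carry no expression values, and the stem cell label was not checked against marker genes.

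Lamin B is a filament protein of the nuclear lamina, the meshwork under the inner nuclear membrane. DNA that lies against the lamina forms long lamina-associated domains, which are poor in genes and mostly silent. H3K9me2 is written mainly by the methyltransferases G9a (Ehmt2) and GLP (Ehmt1) and spreads over broad blocks of repressed chromatin, many of them at the nuclear periphery. How far both kinds of domain share their extent and their borders in stem cells is the question of the comparison. Sequences are not printed, since no mm9 genome was at hand.

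Lamin B domains of ESC were for the most part filled by H3K9me2 in each length class. Of the 1013 Mb in Lamin B domains, H3K9me2 covered 93.5%, while H3K9me2 domains covered 50.9% of the whole autosomal span of 2391 Mb. Of the 708 domains, 530 (74.9%) were covered over at least 90% of their length and 274 (38.7%) over all of it. The median coverage of a domain was 98.8%, with a lower quartile of 89.9%. At the low end, 39 domains (5.51%) were covered over less than 50% of their length, and 20 (2.82%) had no H3K9me2 base.

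Sorted by length, the groups differed in their low tail more than in their middle. The 148 Lamin B domains under 200 kb had a median coverage of 98.5%, the 341 domains of 200 kb to under 1 Mb one of 99.1%, and the 219 domains of 1 Mb or more one of 98.3%. The 10th percentile was 56.6%, 59.6% and 84.7%, in that order. Coverage under 50% was found in 14 of the short, 24 of the middle and 1 of the long domains. No H3K9me2 base was found in 11 short and 9 middle domains, and in no long one. As a share of sequence, coverage was 86.5%, 90.7% and 94.2%. Full coverage went the other way and was less frequent in long domains, at 28.8% against 42.6% in short and 43.4% in middle ones. The median hid these differences, since most domains of each group lay close to 100%.

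**Figure D1:**
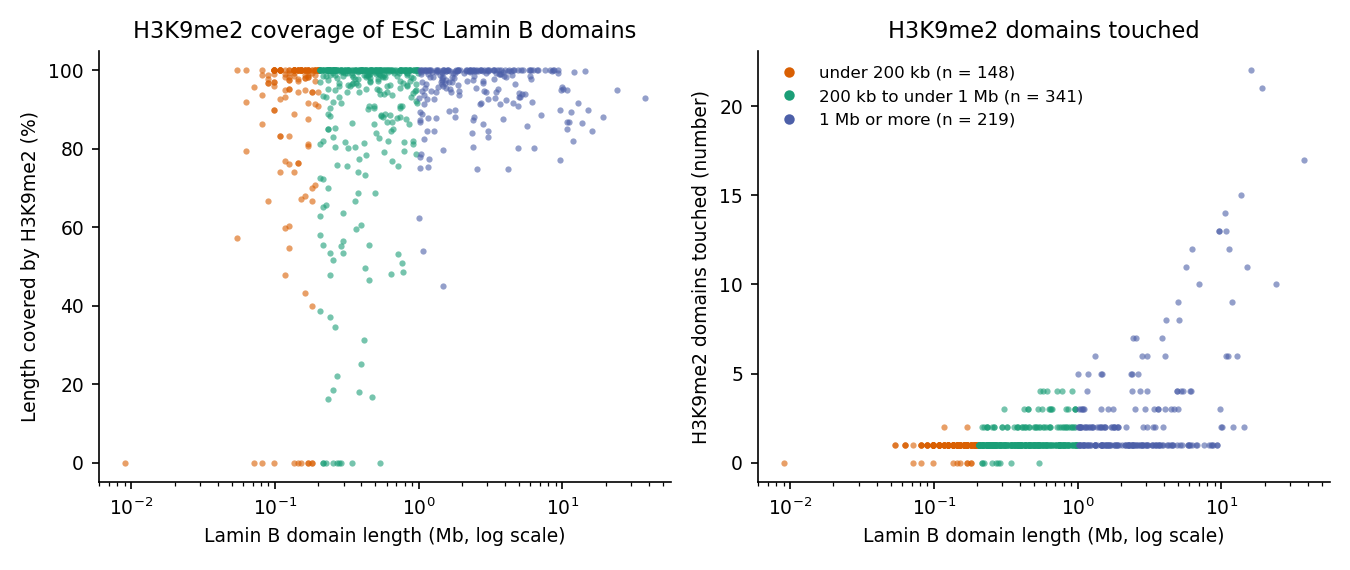
Each point is an ESC Lamin B domain on chromosomes 1 to 19, by its length on a log scale. The left panel gives the percent of its length in H3K9me2 and the right panel the number of H3K9me2 domains it touches. Low coverage is seen mainly below 1 Mb (38 of the 39 domains under 50%), and high numbers touched only above it.

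Most Lamin B domains touched 1 H3K9me2 domain. This held for 512 of 708 (72.3%), and for 135 of 148 short, 263 of 341 middle and 114 of 219 long domains. Another 92 touched 2, 56 touched 3 to 5 and 28 touched 6 or more, all 28 being at least 1 Mb long. The mean was 0.939 H3K9me2 domains per short, 1.26 per middle and 2.82 per long Lamin B domain. Longer domains have more room to hold several. Per 10 Mb of Lamin B sequence the numbers ran the other way, at 68.7, 26.6 and 7.43. That order is largely set by domain length, since most domains touched 1, and does not measure division. Breaks flanked by H3K9me2 on both sides within a Lamin B domain numbered 0.988, 5.98 and 4.80 per 10 Mb, in the same order of classes. When H3K9me2 domains were merged across gaps under 50 kb, 82.2% of Lamin B domains touched exactly 1.

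The longest Lamin B domain, chr14:80676001-118179000 (mm9, 37503 kb), touched 17 H3K9me2 domains and was 93.0% covered. On chromosome 1, the domain at chr1:96003001-120186000 (24183 kb) touched 10 and was 95.01% covered. The most divided were chr13:74781001-90972000, with 22 H3K9me2 domains over 84.4% of its 16191 kb, and chr6:8910001-28071000, with 21 over 88.2% of its 19161 kb. Then came chr6:56880001-70641000 with 15 and chr2:132804001-143505000 with 14, covered to 86.7% and 85.0%. The domain at chr4:16101001-31293000 (15192 kb) touched 11 and was 89.8% covered.

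Great length did not require such division. Of the 45 Lamin B domains of 5 Mb or more, 16 touched 1 H3K9me2 domain and 12 were covered in full, and the lowest coverage among the 45 was 77.3%. The longest with 1 H3K9me2 domain, named after its values were seen, was chr12:42678001-52038000 (9360 kb), covered over 99.2% with its left edge bare. The next were chr5:54657001-63981000 (9324 kb) and chr3:69984001-78714000 (8730 kb), both covered over 100% of their length.

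**Figure D2:**
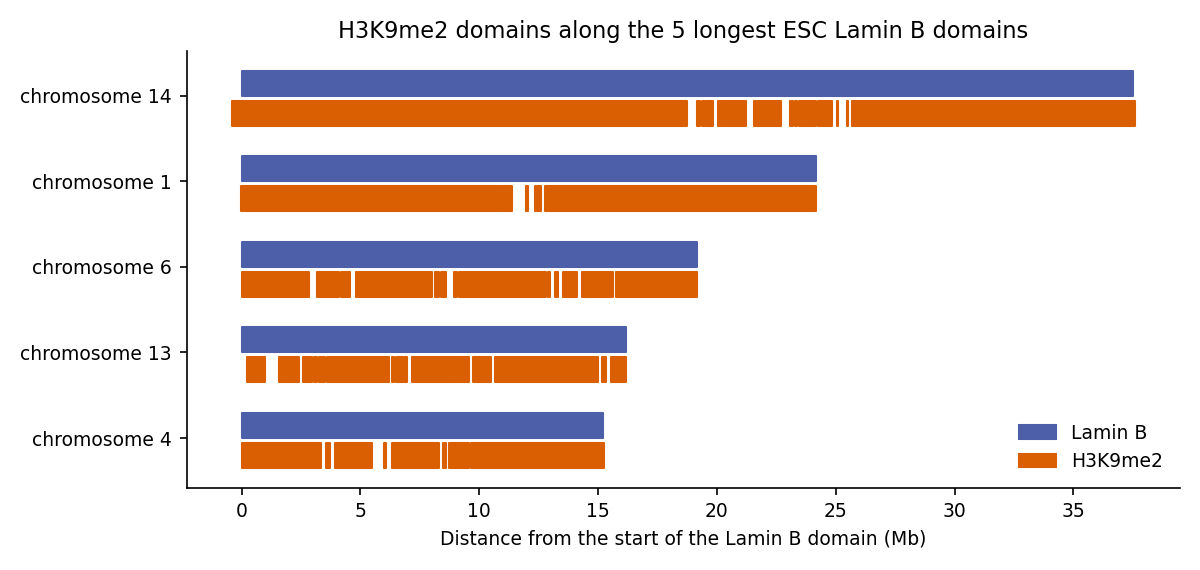
The 5 longest ESC Lamin B domains (upper bars) and the H3K9me2 domains that touch them (lower bars), to scale in Mb from the Lamin B start. Breaks narrower than a line are not visible at this scale. The Lamin B domains on chromosomes 14, 1, 6, 13 and 4 touch 17, 10, 21, 22 and 11 H3K9me2 domains.

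Inside Lamin B domains, 974 stretches with a total of 66.1 Mb had no H3K9me2, and most of it lay in breaks between H3K9me2 domains, away from the Lamin B edges. Breaks flanked by H3K9me2 on both sides within the same Lamin B domain numbered 497 and held 46.2 Mb (69.8%). They lay in 176 Lamin B domains, 105 of them at least 1 Mb long. A break had a median length of 50 kb, and 204 of the 497 (41.0%) were 30 kb or less, which is at most 3 bins of the H3K9me2 list. Breaks of at least 100 kb numbered 147 and held 33.9 Mb, more than the 15.9 Mb in bare ends. Bare ends, the stretches from a Lamin B edge inward to the first H3K9me2 base, numbered 457 with a median of 10 kb. The 20 domains with no H3K9me2 held the remaining 4.02 Mb. In long Lamin B domains breaks made up 86.6% of the bare sequence, in middle ones 28.1% and in short ones 1.83%. Short domains offer little room for an inner break.

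The longest breaks, named after their values were seen, were both 680 kb and lay in the same 9630 kb Lamin B domain, at chr9:3860001-4540000 and chr9:7550001-8230000. The next, of 620 kb, was chr10:33590001-34210000.

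Few Lamin B domains were mostly free of H3K9me2, and 38 of these 39 were under 1 Mb. The longest with coverage under 50% was chr17:22194001-23661000 (1467 kb), covered over 45.0% in 5 pieces, with neither edge covered. It was followed by chr12:79074001-79848000 (774 kb, 48.6%), chr13:64692001-65331000 (639 kb, 48.2%), chr16:42894001-43434000 (540 kb, 0%) and chr1:162243001-162720000 (477 kb, 16.8%). After the chromosome 16 domain, the longest with no H3K9me2 were chr3:66807001-67149000 (342 kb), chr1:178956001-179244000 (288 kb), chr1:159057001-159336000 (279 kb) and chr15:39195001-39465000 (270 kb). The shortest, at chr5:11799001-11808000, was 9 kb long, which is 1 bin of the Lamin B list, and also had none.

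The authors' Lamin B score of these domains was compared with that of the rest. The score grows with length, and its scale is unknown. It had a median of 9.40 in the 24 middle domains under 50% coverage and of 12.5 in the other 317. Their median lengths also differed, at 274.5 and 432 kb, and the score per 100 kb was 3.04 and 3.01. Under 200 kb the median score was 4.21 in the 14 domains under 50% coverage and 3.99 in the other 134, with median lengths of 148.5 and 135 kb. Per 100 kb the order was the reverse, at 2.96 and 3.16. These are values side by side, without a test.

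At the borders, H3K9me2 covered the outermost base of the Lamin B domain at 919 of 1416 edges (64.9%, exact Clopper-Pearson 95% interval 62.4 to 67.4). Intervals of this kind count each edge or domain as independent, and they cover counting error only. The share was 60.1% (54.3 to 65.8) in short, 65.5% (61.8 to 69.1) in middle and 67.1% (62.5 to 71.5) in long Lamin B domains, and these intervals overlap. Both edges were covered in 323 domains (45.6%), 1 edge in 273 (38.6%) and neither in 112 (15.8%).

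At covered edges the H3K9me2 border was often near, but at 288 of the 919 it lay more than 100 kb out. From the Lamin B edge outward to the edge of the covering H3K9me2 domain, the median distance was 27 kb (order-statistic 95% interval 21 to 33), with quartiles of 5 and 155.5 kb. It was 22 kb (13 to 44) in short, 33 kb (25 to 47) in middle and 14 kb (9 to 29) in long domains. Of the 919 distances, 106 (11.5%) ran past the gap and into the next Lamin B domain. The other 813 ended within the gap, with a median of 17 kb. Such bridging was found at 30 of 178 covered edges of short domains, 56 of 447 of middle ones and 20 of 294 of long ones, values given without a test. The distance was sensitive to how H3K9me2 domains were divided, and its median was 75 kb after merging across gaps under 50 kb.

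Edges that were not covered mostly missed H3K9me2 by little. Of these 497 edges, 457 belonged to domains with H3K9me2 further in, and the median inward distance to its first base was 10 kb. That equals 1 bin of the H3K9me2 list, and the Lamin B list has bins of 9 kb, so such offsets are at the resolution of the lists. The remaining 40 edges belonged to the 20 domains without H3K9me2. With an H3K9me2 base within 10 kb on either side counted, 81.3% of edges were covered.

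Put on 1 scale, with outward distances positive and inward ones negative, the median offset was 5 kb and the quartiles were -3.25 and 68.3 kb. The borders coincided within 10 kb at 594 of 1416 edges (41.9%) and within 50 kb at 898 (63.4%). Larger offsets were mostly outward: H3K9me2 ran more than 100 kb beyond the Lamin B edge at 288 edges (20.3%) and stopped more than 100 kb inside it at 37 (2.61%). The 2 counts are not like measures. Outward distances include those that ran into the next Lamin B domain, whereas an inward distance is limited by the length of its own domain. Among long domains 46.8% of edges coincided within 10 kb, among short ones 46.6%, and among middle ones 36.8%.

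A narrower set of edges kept neighbouring domains from entering the picture. It held 177 edges whose Lamin B domain and adjoining gap were both at least 1 Mb long. Around them, H3K9me2 ends that faced the same way as the Lamin B edge were concentrated at the edge itself, with 16.4 per 100 edges in the 20 kb just inside and 27.1 in the 20 kb just outside. Between 200 and 500 kb away a 20 kb step held 1.09 per 100 edges inside and 3.35 outside. Ends that faced the other way numbered 0 just inside and 3.95 just outside, against 1.17 and 2.49 per step further away.

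H3K9me2 occupancy around these 177 edges fell in a step at the edge and then declined further outward. At 90 kb inside, 96.0% of edges had H3K9me2, and at 10 kb inside 85.3%. At 10 kb outside the share was 49.2%, at 90 kb 37.9% and at 490 kb 18.6%. Without this selection, where other Lamin B domains come within reach, the share was 81.4% of 1416 edges at 10 kb inside. It was 41.8% of 1407 edges at 10 kb outside and 43.9% of 1402 at 490 kb outside, the rest of the positions lying beyond the span.

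**Figure D3:**
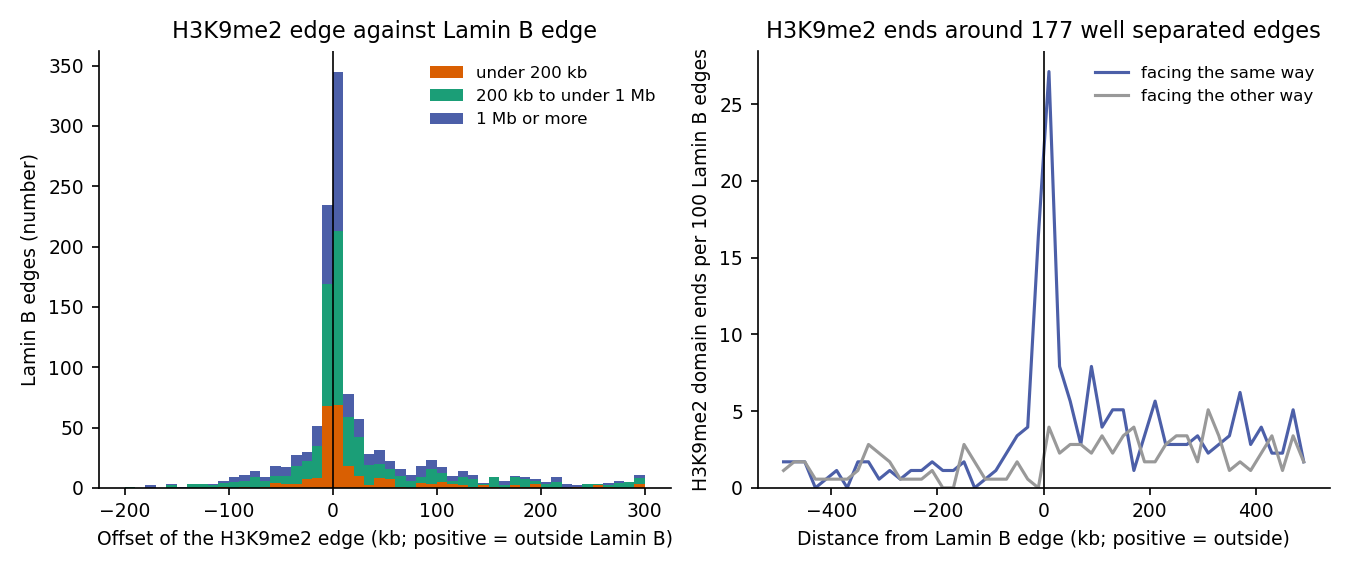
Left, offset in kb of the H3K9me2 border from the Lamin B edge in 10 kb bins, stacked by Lamin B length class. 1219 edges are drawn; 15 lie below -200 kb, 142 above 300 kb, and 40 have no offset. Right, H3K9me2 domain ends per 100 Lamin B edges in 20 kb steps around 177 edges with a domain and a gap of at least 1 Mb. The peak of ends that face the same way lies within 20 kb of the edge.

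Some H3K9me2 domains ran far out from a Lamin B edge without meeting another Lamin B domain on that side. The longest such reach was 1174 kb, leftward from chr9:28404001-28800000, a Lamin B domain of only 396 kb. Next were 1128 kb to the right of chr15:28341001-29952000 and 1093 kb to the right of chr12:14211001-15417000. Then came 933 kb to the left of chr8:16083001-18342000 and 788 kb to the right of chr7:131202001-131742000.

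Gaps between neighbouring Lamin B domains were seldom closed by H3K9me2. Of 689 gaps, 53 (7.69%, exact interval 5.81 to 9.94) were wholly covered, each by 1 H3K9me2 domain. These were 44 of 183 gaps under 200 kb (24.0%, 18.0 to 30.9), 9 of 251 of 200 kb to under 1 Mb (3.59%, 1.65 to 6.70) and 0 of 255 longer ones (upper limit 1.44%). With H3K9me2 merged across gaps under 50 kb, 12.5% of all gaps were wholly covered. With both lists cut at their own median score, which left 367 Lamin B domains and thus other gaps, it was 1.72%.

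Short gaps were split in their state. Under 200 kb, 41 of 183 (22.4%) held no H3K9me2, 44 were closed and 98 were partly covered. The closed share of these short gaps, 24.0%, was 41.0% after the same merging and 16.7% with the cut at the median score. Over their summed length, H3K9me2 covered 33.8% of short, 27.0% of middle and 19.1% of long gaps. The longest closed gap was chr4:64773001-65502000 (729 kb), followed by chr15:31878001-32373000 (495 kb), chr15:67887001-68310000 (423 kb) and chr3:39690001-40059000 (369 kb). Another closed gap of 369 kb is not located here.

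Seen from the H3K9me2 list, contact with Lamin B rose steeply with domain length. Any shared base counted as contact, and 1132 of 2431 H3K9me2 domains (46.6%, exact interval 44.6 to 48.6) had it. The share was 442 of 1497 (29.5%, 27.2 to 31.9) under 200 kb, 428 of 664 (64.5%, 60.7 to 68.1) from 200 kb to under 1 Mb, and 262 of 270 (97.0%, 94.2 to 98.7) at 1 Mb or more. All 100 domains of 2 to under 5 Mb and all 35 longer ones touched Lamin B. With both lists cut at their own median score the middle share was 40.8%, and the order of the length groups was the same. That cut left 367 Lamin B domains, none of them under 200 kb, so there was less Lamin B to meet.

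A longer domain meets Lamin B more easily by its length alone, so the midpoint of each domain was read as well. It lay in Lamin B for 29.3% (27.0 to 31.6) of short, 60.7% (56.9 to 64.4) of middle and 95.2% (91.9 to 97.4) of long H3K9me2 domains. Lamin B domains cover 42.4% of the autosomal span, so midpoints of short domains lay below that share and those of the other groups above it. The lowest share was in domains of 50 to under 100 kb, with 191 of 740 midpoints (25.8%, 22.7 to 29.1).

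Near the class limits contact changed gradually. Contact was found for 26 of 63 domains of 180 to under 200 kb (41.3%) and 39 of 85 of 200 to under 220 kb (45.9%), and for 28 of 32 of 900 to under 1000 kb (87.5%) and 25 of 28 of 1000 to under 1100 kb (89.3%). Lamin B domains within the same length ranges had median H3K9me2 coverages of 99.2%, 95.3%, 99.3% and 91.5%. These medians rest on 26, 24, 21 and 21 domains and were not tested.

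**Figure D4:**
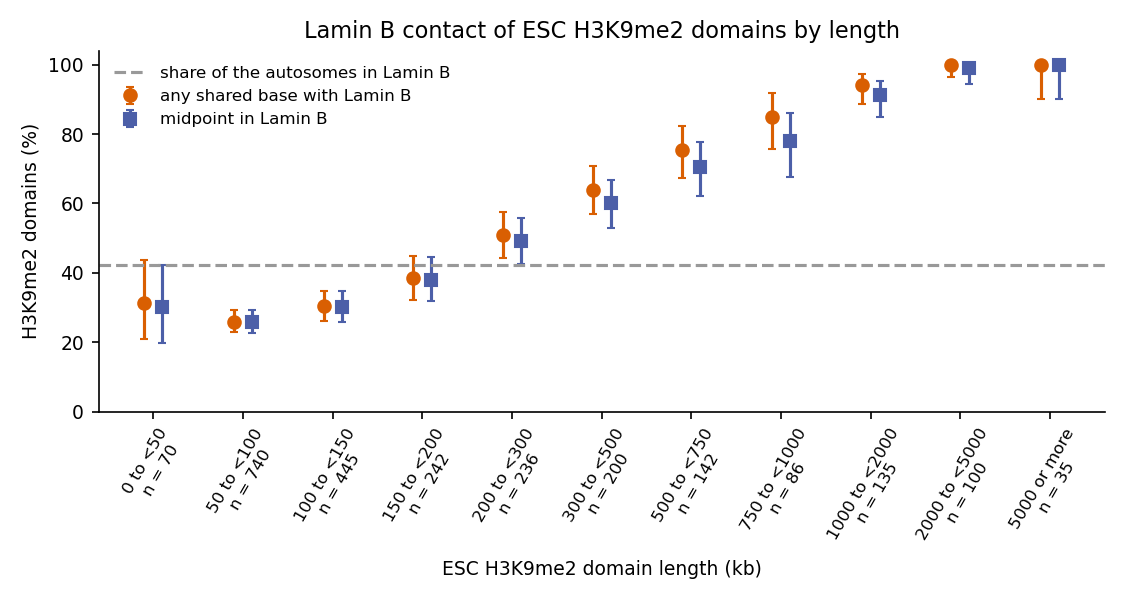
Share of ESC H3K9me2 domains in percent that share a base with Lamin B (circles) or have their midpoint in it (squares), by domain length in kb, with exact 95% intervals. The dashed line is the 42.4% of the autosomal span in Lamin B. Both shares lie below the line up to 200 kb and climb to 100% in the last group.

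The low share for short domains takes another form once the space open to them is counted. H3K9me2 domains of at least 200 kb filled most of Lamin B and left 110.2 Mb of it open, against 1212 Mb outside. Lamin B thus held 8.34% of the open sequence and 438 of 1497 (29.3%) of the midpoints of short H3K9me2 domains. Per 10 Mb of open sequence there were 39.7 short domains in Lamin B and 8.74 outside, a ratio of 4.55. Short domains occupied 40.0% of the open sequence in Lamin B and 8.49% of that outside. This ratio was computed after the shares by length had been seen, without a test.

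The position of contacting domains relative to Lamin B also followed length. Under 200 kb, 332 of the 442 domains with contact lay wholly inside Lamin B, 97 crossed an edge and 13 held a whole Lamin B domain. At 1 Mb or more, 79 lay inside, 86 crossed edges and 97 held at least 1 whole Lamin B domain. An H3K9me2 domain can hold only Lamin B domains no longer than itself, and can lie inside only those at least as long. Part of this order is thus set by length alone. A contacting H3K9me2 domain had a median of 100% of its length in Lamin B when short, 98.2% when of middle length and 99.2% when long. H3K9me2 domains that met 2 or more Lamin B domains numbered 48. The domain at chr15:67010001-72340000 (5330 kb) met 4, the highest number. Those that met 3 were chr4:63250001-80450000 (17200 kb), chr15:25930001-27160000 (1230 kb) and chr15:31550001-33920000 (2370 kb). Another, chr1:159490001-161160000 (1670 kb), was the first by position of the many that met 2.

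The 1299 H3K9me2 domains without Lamin B contact (53.4% by number) held 198.9 Mb, or 16.4% of H3K9me2 sequence. Most were short, with 1055 under 200 kb, 236 from 200 kb to under 1 Mb and 8 longer. The gap to the nearest Lamin B domain was under 100 kb for 196 (15.1%) and at least 1 Mb for 545 (42.0%), with a median of 680 kb. How much of the sequence outside Lamin B lies at these distances was not computed, so the shares lack a background. The median gap was 587 kb for short, 1151 kb for middle and 2830 kb for long domains, the last from only 8 domains. A domain without contact must fit whole in a stretch free of Lamin B, so longer ones can lie only in longer stretches. The part of this limit in the order was not tested.

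All 8 long domains without contact measured between 1020 and 1980 kb. The longest was chr14:22840001-24820000, 2968 kb from the nearest Lamin B domain. It was followed by chr13:70790001-72090000 (1300 kb long, 2691 kb away), chr12:107790001-108980000 (1190 kb, 4839 kb away), chr14:29360001-30520000 (1160 kb, 5543 kb away) and chr8:117740001-118880000 (1140 kb, 1721 kb away). The nearest to a Lamin B domain was chr1:127630001-128670000, at 478 kb.

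The authors' H3K9me2 score was lower in each length class where there was no Lamin B contact. Per 100 kb its median was 3.08 without and 3.46 with contact under 200 kb. It was 3.02 and 3.37 in the middle class, and 3.05 in the 8 long domains without contact and 3.68 in the 262 with it. Domains with contact were longer within each class (medians of 440 and 300 kb in the middle class), and the part of length in these values was not tested.

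Chromosomes varied little in the filling of Lamin B and more in the contact of H3K9me2. From 87.5% of Lamin B sequence on chromosome 13 to 97.7% on chromosome 8 lay in H3K9me2, with a median of 93.5% over 19 chromosomes. Edges were covered least on chromosome 13 (48.8%) and most on chromosome 15 (83.8%), with 73.4% on chromosome 8 as the next highest. H3K9me2 contact by number ran from 32.1% on chromosome 18 to 60% on chromosome 16. For H3K9me2 domains under 200 kb it ran from 13.0% on chromosome 18 and 17.8% on chromosome 8 to 38.8% on chromosome 4. Chromosome 8 thus had the fullest Lamin B domains but few contacting H3K9me2 domains, with 54.4% of its span in H3K9me2 and 40.6% in Lamin B.

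**Figure D5:**
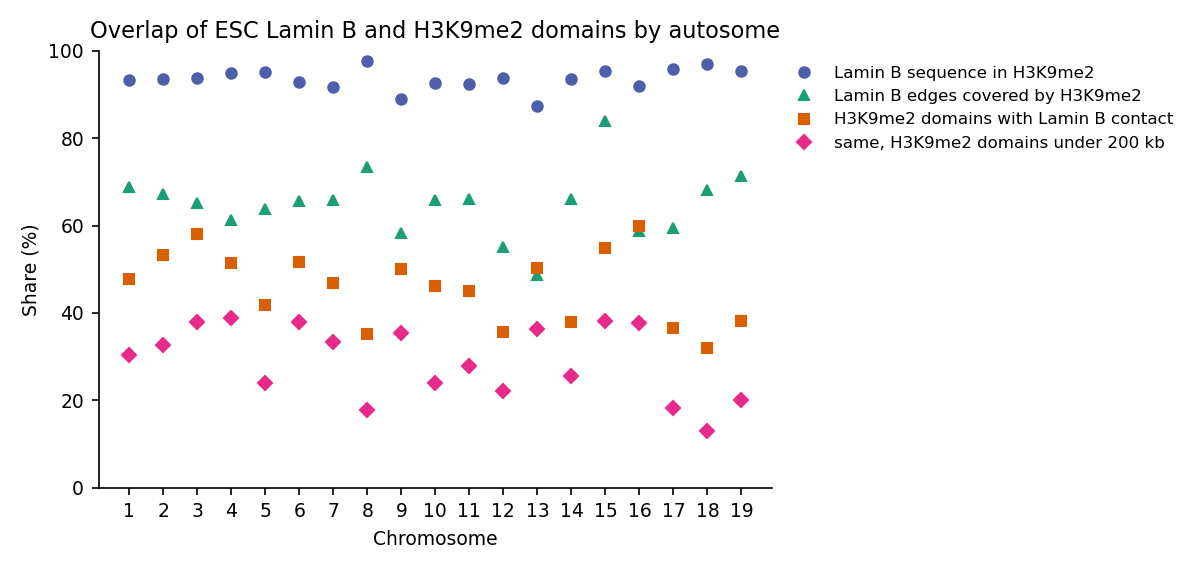
Shares in percent for each autosome: Lamin B sequence in H3K9me2 (circles), Lamin B edges covered (triangles), H3K9me2 domains with Lamin B contact (squares) and the same for those under 200 kb (diamonds). The circles stay between 87.5% and 97.7%, whereas the diamonds spread from 13.0% to 38.8%.

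In cardiomyocytes the same measures gave the following values beside those of ESC, from lists with other bins (11 kb for Lamin B, 20 kb for H3K9me2) and without a test. H3K9me2 covered 96.0% of cardiomyocyte Lamin B sequence (93.5% in ESC), and 82.6% of Lamin B domains touched exactly 1 H3K9me2 domain (72.3%). No H3K9me2 base was found in 81 of 826 Lamin B domains (20 of 708), 51 of them under 200 kb. Edges were covered at 69.4% (64.9%), with a median outward distance of 78.5 kb (27 kb), and borders coincided within 10 kb at 25.3% of edges (41.9%). The part of the larger bins in these values was not tested. H3K9me2 contact by length was 33.2%, 58.8% and 96.6%, against 29.5%, 64.5% and 97.0% in ESC.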

How the data were processed

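ChIP-seq domain lists were analysed, 1 per cell type and antibody, from a series of 18 libraries. STAR, Picard and deepTools and the build mm9 are named, without versions or roles, per the submitters' processing notes. No domain caller was named in these sources. The settings g 10, an automatic bin and a false discovery rate of 5% are named per the file headers. Each list gives domain starts and ends and a score, which is the authors' deposited value per domain on a scale that is not given. Edges lay on grids of 9 kb (ESC Lamin B) and 10 kb (ESC H3K9me2). Groups follow the titles in the labels. Depth per library is unknown.

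Coverage, contacts and edge distances were computed with Python 3.11.15, numpy 2.4.6 and pandas 2.3.3, and exact intervals with scipy 1.17.1. Figures were drawn with matplotlib 3.10.9. A chromosome's span was the stretch between the outermost domain bases in any of the 4 lists. The functions were tested on simulated domains with known offsets. Named were 5 domains, edges or gaps for each rule, except where said: the longest Lamin B domains, the longest under 50% covered, the longest without H3K9me2, those that touched the most H3K9me2 domains, the furthest outward reaches, the longest H3K9me2 domains without contact, those that touched the most Lamin B domains (ties by position) and the longest closed gaps. Coordinates on chromosome 18 were not printed. The members, length classes and measures were chosen with earlier results of these data known. Alternatives were a score filter, merging of H3K9me2 domains, inclusion of X and other definitions of contact.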

Additional observations from a re-analysis of the deposited data

How the results depend on the processing

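No paired analysis was possible because the libraries behind a list cannot be separated, and for the same reason none was left out. Keeping domains at or above the median score of their own list gave H3K9me2 coverage of 92.2% of Lamin B sequence. It was 92.5% in long and 89.2% in middle domains, with no short domain left. Of Lamin B domains, 96.5% were covered over at least 50%, against 94.5% as reported. By class this was 93.2% of middle (93.0% as reported) and 98.6% of long domains (99.5%). H3K9me2 contact was 49.8% (46.6% as reported). In short, middle and long domains it was 29.4% (29.5%), 40.8% (64.5%) and 94.4% (97.0%). The filter kept 303 of 1497 short H3K9me2 domains, so the shares over all domains rest on another mix of lengths. Closed gaps made up 1.72%. Merging H3K9me2 domains across gaps under 50 kb gave coverage of 94.0% (87.3%, 91.6% and 94.6% in short, middle and long domains), 82.2% of Lamin B domains touching exactly 1, 68.9% of edges covered, a median outward distance of 75 kb, 12.5% of gaps closed, and contact of 22.0% of short and 59.8% of middle H3K9me2 domains. Merging leaves fewer domains by construction. So does the score filter, which left 367 Lamin B and 1220 H3K9me2 domains. Adding X gave coverage of 92.9% (85.3%, 90.5% and 93.6%) and contact of 31.9% of short H3K9me2 domains. With at least 50% of the H3K9me2 domain required in Lamin B, contact was 60.5% in the middle and 92.6% in the long class. Exactly 1 was then touched by 59.0% of Lamin B domains, against 72.3% as reported. By class this was 63.5% of short (91.2% as reported), 61.9% of middle (77.1%) and 51.6% of long ones (52.1%). Under this rule a Lamin B domain within a larger H3K9me2 domain can count as touching none, so the lower share does not measure division. Allowing 10 kb at edges gave 81.3% covered, and distances that end in the gap had a median of 17 kb. The ratio of short H3K9me2 domains per open sequence, 4.55 as reported, was 5.95 with the score filter, 4.07 after merging and 4.43 with X. The order of the 3 length classes in contact was the same under all 6 alternatives, of which the midpoint was added after the data were seen, as were those for open sequence. The causes of these shifts were not tested unless stated. Depth is unknown, so the absence of a domain cannot be told apart from low depth.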

Other observations

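The X chromosome of ESC, outside the comparison above, had 59 Lamin B and 241 H3K9me2 domains. H3K9me2 covered 87.6% of its Lamin B sequence, against a range of 87.5% to 97.7% over the autosomes, and 54 of 118 Lamin B edges (45.8%), against 48.8% to 83.8%. Contact with Lamin B was found for 157 of its 241 H3K9me2 domains (65.1%, exact Clopper-Pearson 95% interval 58.8 to 71.1), and for 89 of 166 (53.6%) under 200 kb. On no autosome did the latter share exceed 38.8%. Lamin B covered from 28.7% to 51.7% of the span of an autosome. Its share of X is not given here, so the contact shares lack a common background. Of the 58 gaps between Lamin B domains on X, 1 was closed by H3K9me2. Y had 4 Lamin B and 8 H3K9me2 domains.

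The later state of these ESC domains was read from the cardiomyocyte lists, in which Lamin B domains cover 45.9% of the autosomal span and H3K9me2 domains 54.2%. H3K9me2 domains with Lamin B contact in ESC lay in cardiomyocyte Lamin B over at least 50% of their length in 1052 of 1132 cases (92.9%), and those without contact in 242 of 1299 (18.6%). Of the 8 long H3K9me2 domains without contact, 2 lay in cardiomyocyte Lamin B over at least 50% of their length, chr12:28190001-29230000 (83.6%) and chr13:70790001-72090000 (55.0%). Both were covered by cardiomyocyte H3K9me2 nearly in full (100% and 99.2%). H3K9me2 domains under 200 kb were covered by cardiomyocyte H3K9me2 over at least 50% of their length in 362 of 442 cases (81.9%) with ESC Lamin B contact and in 614 of 1055 (58.2%) without it. By sequence, cardiomyocyte H3K9me2 covered 84.5% of the former and 61.5% of the latter. It covered 97.0% of the sequence of ESC Lamin B domains at least 50% covered by ESC H3K9me2, so short contacting domains lay below that share.

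Breaks in H3K9me2 inside ESC Lamin B domains, 46.2 Mb in all, lay in cardiomyocyte H3K9me2 over 64.4% of their length, and 357 of 497 did so completely. That share stands beside 54.2% of the whole span and 97.0% of the sequence of ESC Lamin B domains at least 50% covered by ESC H3K9me2. The sequence of those domains includes most of the breaks, so the 64.4% and the 97.0% are not from separate sets. The 680 kb break at chr9:3860001-4540000 was covered in full in cardiomyocytes, and that at chr9:7550001-8230000 in the same Lamin B domain over 13.2%. The 20 ESC Lamin B domains without H3K9me2 lay in cardiomyocyte Lamin B over 82.0% of their sequence and in cardiomyocyte H3K9me2 over 28.9%. For the 669 ESC Lamin B domains with at least 50% coverage these shares were 97.3% and 97.0%. The cardiomyocyte H3K9me2 list has bins of 20 kb against 10 kb in ESC, and their part in the filling of short breaks was not tested.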
